A study of Mus musculus with 40 samples.

Results

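The C/EBP genes encode the CCAAT/enhancer-binding proteins, and the 5 members Cebpa, Cebpb, Cebpd, Cebpe and Cebpg were taken by name from the 21938 protein-coding genes of chromosomes 1 to 19, X and Y. For each gene, every called peak of H3K4me3, H3K27ac, H3K4me1 and H3K27me3 over the gene body and 50 kb on each side was collected from 32 peak lists on GRCm38. These windows held 505 of the 457842 peaks, of which 107 were H3K4me3, 258 H3K27ac, 139 H3K4me1 and 1 H3K27me3. The tissue, labelled iBAT, was brown fat, and the mice were wild type, of the C57BL/6N strain and 20 weeks old. All mice received chow up to 8 weeks of age, and the high-fat diet (HFD) cohorts then received HFD for 12 weeks while the others stayed on chow (NCD). Cold mice were kept at 4 °C for 24 h, and the other mice are labelled warm. The warm NCD group consisted of mice 1 and 2. The cold NCD animals carry the numbers 4 and 5. Of the HFD cohorts, mice 7 and 8 were kept warm, whereas 10 and 11 were exposed to cold. Each temperature and each diet thus had 4 mice. By the labels, each of the 8 mice gave 1 list per mark and 1 input.

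C/EBP proteins are basic leucine zipper transcription factors that bind DNA as dimers. In fat cell differentiation Cebpb and Cebpd are known as early genes, induced by hormones and by cAMP signalling, and they precede Cebpa, which works with Pparg to establish and hold the fat cell programme. C/EBPβ is also known as a partner of PRDM16 in brown fat. Cebpe is known for late granulocyte maturation, and Cebpg encodes a short partner protein without a classical activation domain that dimerises with other C/EBP and ATF proteins. H3K4me3 marks active promoters, and its domains tend to be broad at genes of cell identity. H3K27ac marks active promoters and enhancers, H3K4me1 marks enhancers, and H3K27me3 marks genes repressed by Polycomb.

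The genes Cebpa, Cebpb, Cebpd and Cebpg carried H3K4me3 at the transcription start site (TSS) in all 8 mice, and Cebpe carried it in 0 of 8. The plot of called peaks by gene, mark and mouse gives this pattern, in which no combination of a C/EBP gene and a mark followed temperature or diet. The marked genes split into Cebpa and Cebpb, whose domains were among the widest of their lists and continued into long H3K27ac tracts, and Cebpd and Cebpg, whose domains were shorter. Cebpa, Cebpb and Cebpg also had distal H3K27ac above the median of all protein-coding genes in each of the 8 mice. In mouse 7 any distal base was enough for this, since most genes had none there. Cebpd and Cebpe had fewer distal bases than these 3 genes, at median percentiles of 60.7 and 48.8, where the median over all genes was 34.6.

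**Figure D1:**
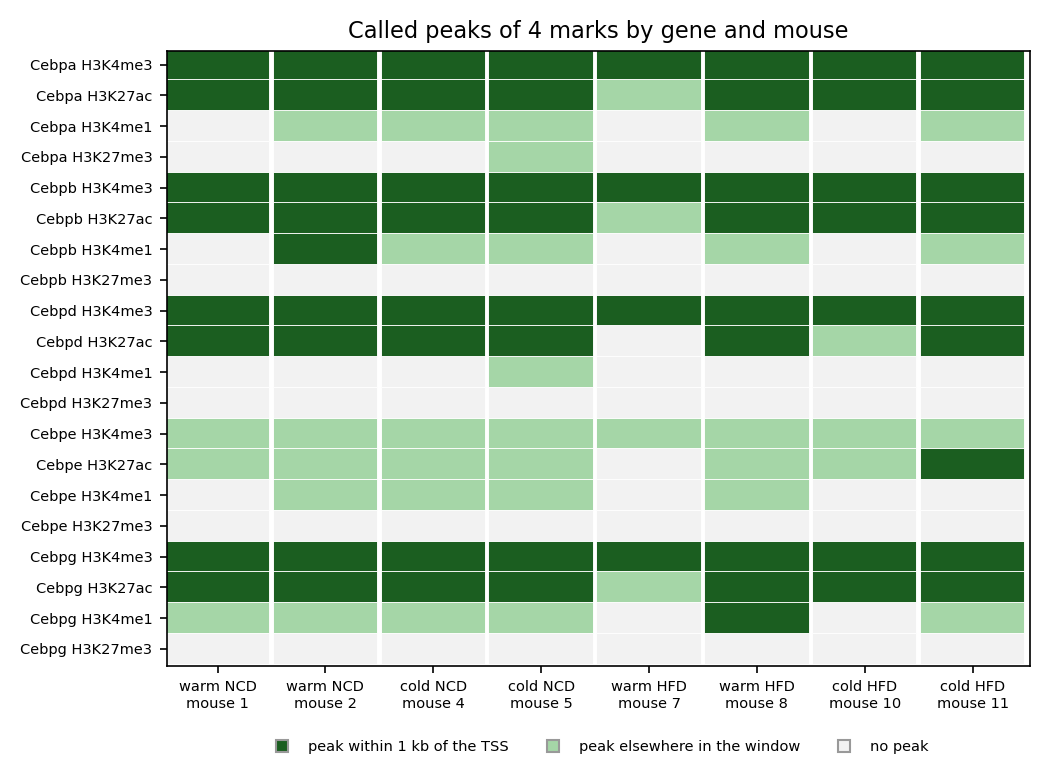
Presence of called peaks for the 5 C/EBP genes and 4 marks (vertical) in the 8 mice (horizontal, 2 per condition). Dark green stands for a peak within 1 kb of the TSS, light green for a peak elsewhere in the gene body and 50 kb on each side, and grey for no peak. H3K4me3 lay at the TSS of Cebpa, Cebpb, Cebpd and Cebpg in 8 of 8 mice and at that of Cebpe in 0 of 8.

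The libraries differed widely in how much was called, and these differences touch every value below. H3K4me3 lists held 13517 to 24104 peaks, H3K27ac lists 3224 to 40604, H3K4me1 lists 12 to 27568 and H3K27me3 lists 20 to 6428. The H3K27ac list of mouse 7 was the shortest, and that of mouse 10 held 14511 peaks. Mouse 7 also had the shortest H3K4me3 list, and the H3K4me1 lists of mice 7 and 10 held only 12 and 18 peaks. For this reason each domain or gene was ranked within its own list, from 0 to 100 for the widest, and results that rest on mouse 7 or mouse 10 are given with and without them. The brown adipocyte markers Ucp1, Cidea, Plin1, Adipoq, Pparg and Fabp4 had H3K4me3 at the TSS in all 8 mice (6 of 6). The same held for 2 of 3 endothelial markers, for 0 of 4 macrophage markers, 0 of 3 muscle markers and 0 of 3 hepatocyte markers. In part of the mice, H3K4me3 was called at endothelial Kdr (7), muscle Acta1 (4), and macrophage Csf1r (2) and Cd68 (1). The granulocyte markers Ltf, Camp, Ngp, Elane, Mpo, S100a8 and S100a9 had H3K4me3 or H3K27ac at the TSS in 0 of 8 mice.

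The promoters of Cebpa, Cebpb and Cebpg are shown first, since these genes had H3K4me3 at the TSS in 8 mice and H3K27ac in 7. GENCODE places Cebpa at chr7:35119293-35121928 on the plus strand (2636 bp), Cebpb at chr2:167688915-167690418 on the plus strand (1504 bp, 1 exon), and Cebpg at chr7:35046422-35056573 on the minus strand (10152 bp, 2 exons). Cebpd lies at chr16:15887286-15891031 on the plus strand (3746 bp, 1 exon) and Cebpe at chr14:54710360-54712174 on the minus strand (1815 bp, 2 exons). The 240 bases ending 11 bases before the RefSeq start on GRCm38.p6 are printed 5′ to 3′ on the strand of the gene for Cebpa (chr7:35119043-35119282), Cebpb (chr2:167688665-167688904) and Cebpg (chr7:35056577-35056816). Capitals mark matches on either strand to TATAAA (the TATA box), ATTGG (the reverse of the CCAAT box), TGACG (the core of a cAMP response element, capitalised as its reverse complement where it lies on the other strand) and TTGCNNAA (a C/EBP palindrome).
Cebpa: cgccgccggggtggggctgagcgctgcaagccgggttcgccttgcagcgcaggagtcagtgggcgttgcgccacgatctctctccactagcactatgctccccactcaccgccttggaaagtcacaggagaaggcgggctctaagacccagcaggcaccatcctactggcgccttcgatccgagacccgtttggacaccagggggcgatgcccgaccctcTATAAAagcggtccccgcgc
Cebpb: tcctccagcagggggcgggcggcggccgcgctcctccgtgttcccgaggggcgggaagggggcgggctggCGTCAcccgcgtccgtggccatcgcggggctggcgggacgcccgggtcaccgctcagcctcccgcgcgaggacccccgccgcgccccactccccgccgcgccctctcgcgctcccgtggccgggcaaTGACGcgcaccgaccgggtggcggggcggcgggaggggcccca
Cebpg: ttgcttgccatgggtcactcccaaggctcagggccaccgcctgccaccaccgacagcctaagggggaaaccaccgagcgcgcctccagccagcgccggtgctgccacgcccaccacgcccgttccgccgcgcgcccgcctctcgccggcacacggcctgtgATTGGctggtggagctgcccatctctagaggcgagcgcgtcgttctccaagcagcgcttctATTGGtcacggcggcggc

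The 3 promoters differed in these elements. Cebpa had TATAAA starting 30 bases before the start, a match that 12.1% of 32851 RefSeq promoter windows of the same length hold. Cebpb had TGACG 180 and 53 bases before the start, against 3.49% of promoters with at least 2 such matches. Cebpg had ATTGG 89 and 28 bases before the start, against 9.64% of promoters with at least 2. The GC box letters GGGCGG, not capitalised here, occurred 5 times in the Cebpb window, of which those 238 and 234 bases before the start overlap each other, and 0 times in the windows of Cebpa and Cebpg. GGGCGG was found in 31.3% of all promoters. TTGCNNAA, held by 9.29% of promoters, and the E-box CACGTG, held by 5.69%, had no match in these 3 windows. GC content was 65.4% for Cebpa, 82.1% for Cebpb and 70.0% for Cebpg, against a median of 52.1% and a 90th percentile of 69.2% over all promoters. These letter matches are a description and were not compared with any binding data. Cebpd and Cebpe are named without a sequence.

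H3K4me3 domains were broadest at Cebpa and Cebpb. A domain is the run of called peaks of a list joined over gaps of up to 1000 bp that reaches within 1000 bp of the TSS. At Cebpa, the gene of the mature fat cell, its width in mice 1, 2, 4, 5, 7, 8, 10 and 11 was 5.60, 5.38, 5.44, 5.95, 1.09, 4.82, 3.89 and 5.55 kb. Mouse 7 was far below the other mice, and mice 10 and 8 came next. At Cebpb, the early gene of differentiation, the widths in the same order were 5.42, 4.62, 5.08, 5.31, 2.28, 5.04, 4.96 and 6.45 kb. Here too mouse 7 was the narrowest, while mouse 11 was the widest. At Cebpd, the other early gene, the widths were 3.41, 3.84, 2.13, 2.22, 0.27, 3.42, 2.70 and 4.36 kb, with mouse 7 again the narrowest. At Cebpg, the partner gene, they were 2.48, 2.51, 1.58, 1.77, 1.60, 2.34, 2.29 and 2.95 kb.

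**Figure D2:**
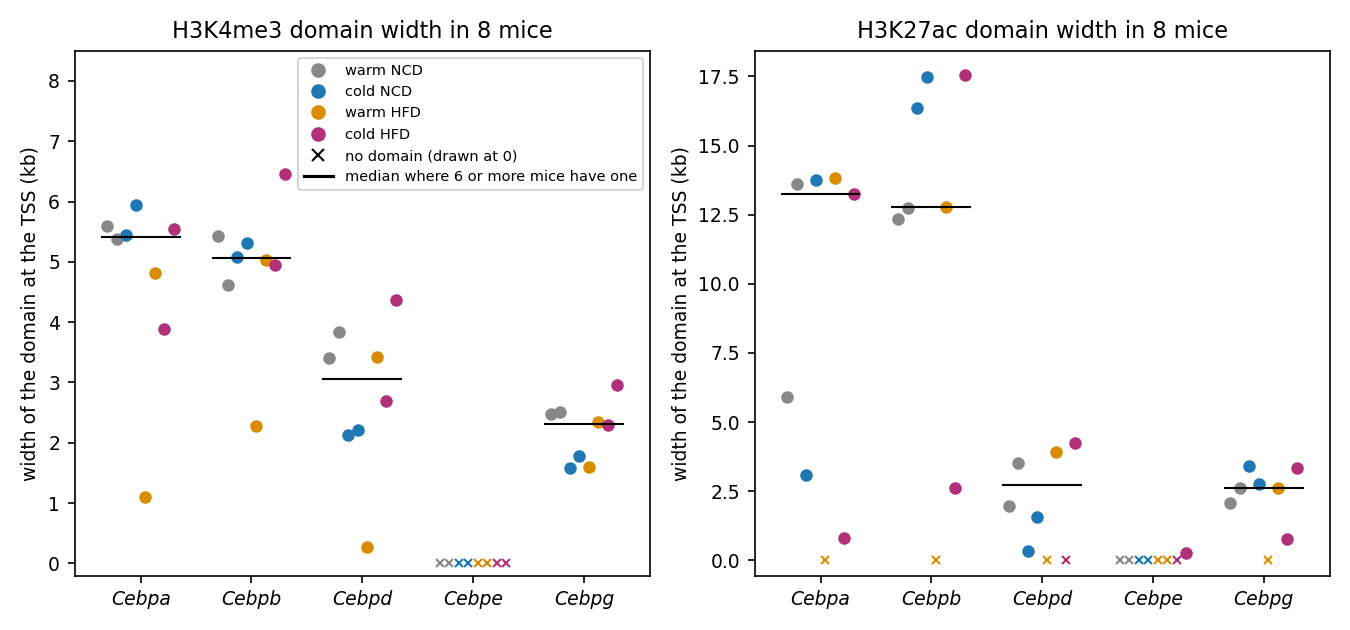
Width in kb of the domain at the TSS of each C/EBP gene for H3K4me3 (left) and H3K27ac (right). Each point is 1 of 8 mice, coloured by condition, crosses at 0 stand for no domain, and bars are medians where at least 6 mice have a domain. H3K4me3 medians were 5.41 kb for Cebpa, 5.06 kb for Cebpb, 3.06 kb for Cebpd and 2.32 kb for Cebpg.

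Within their own lists these domains ranked in the order Cebpb, Cebpa, Cebpd and Cebpg. The median percentile of width was 99.0 for Cebpb (93.7 to 99.3), 98.7 for Cebpa (60.1 to 99.5), 94.0 for Cebpd (7.58 to 96.7) and 86.7 for Cebpg (77.5 to 89.5), all n = 8. Over the 9499 protein-coding genes with a domain in all 8 mice the median of such medians was 72.1, and by it Cebpb was number 142, Cebpa 179, Cebpd 883 and Cebpg 2193. Cebpa and Cebpb overlapped and cannot be ordered: Cebpa ranked higher in the 4 NCD mice and Cebpb in the 4 HFD mice. Cebpa ranked above Cebpd in 8 of 8 mice and Cebpd above Cebpg in 7 of 8, mouse 7 being the exception. The libraries came from whole dissociated tissue, so a mark in fewer cells of a type and a weaker mark per cell cannot be told apart in these values.

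The edges of these domains varied between mice, and mouse 7 set several of the extremes. The Cebpa domain of H3K4me3 began 1.40 to 1.65 kb upstream of the TSS in all 8 mice and ended at a median of 3.82 kb downstream, past the end of the gene, with a range from -0.312 to 4.41 kb. The Cebpb domain ran from a median of 1.39 kb upstream (start from -1.88 to 0.801 kb) to 3.68 kb downstream (end from 3.08 to 4.57 kb). The Cebpd domain ran from 0.715 kb upstream (-0.976 to 0.066 kb) to 2.33 kb downstream (0.335 to 3.39 kb), and the Cebpg domain from 0.559 kb upstream (-0.812 to -0.452 kb) to 1.71 kb downstream (1.11 to 2.28 kb). Without mouse 7 the Cebpa end ran from 2.35 to 4.41 kb. The Cebpb start then ran from -1.88 to -1.01 kb and its end from 3.30 to 4.57 kb. At Cebpd the start ran from -0.976 to -0.63 kb and the end from 1.50 to 3.39 kb. At Cebpg the end ran from 1.13 to 2.28 kb. Without that mouse the end thus varied over a wider range than the start at each of these genes. H3K4me3 peaks covered a median of 99.1% of the Cebpa gene body, 100% of Cebpb, 54.7% of Cebpd and 16.2% of Cebpg, which is the longest of these genes. Annotated antisense or neighbouring transcripts start inside 3 of these domains: Gm45091 begins 0.312 kb into Cebpa, Gm45095 0.546 kb into Cebpg, and the lincRNA A530013C23Rik 2.26 kb downstream of the Cebpb start. The marks of each pair cannot be told apart in these lists, since a peak carries no strand.

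By median percentile, Cebpb came first and Cebpg last in both width and height, while Cebpa and Cebpd changed places. The height percentiles of the genes overlapped, and the difference in order was not tested. Height was the fold enrichment of the strongest peak at the TSS, that with the smallest p, as given by the authors' peak caller. It was ranked among the single peaks of its list, whereas width was ranked among joined domains. The median percentile of fold was 82.5 for Cebpb (66.4 to 89.1), 68.5 for Cebpd (14.4 to 88.0), 65.5 for Cebpa (3.84 to 82.1) and 65.3 for Cebpg (10.6 to 91.0). At Cebpa the percentile of width was thus higher than that of height in 7 of 8 mice. No such comparison was made over all genes, so this gap is not shown to be particular to Cebpa. The plainest case was mouse 10, where a Cebpa domain of 3.89 kb stood at percentile 97.7 of width while its strongest peak, with a fold of 3.19, stood at percentile 3.84. In mouse 7 the Cebpa domain stood at percentile 60.1 of width and 66.4 of fold.

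**Figure D3:**
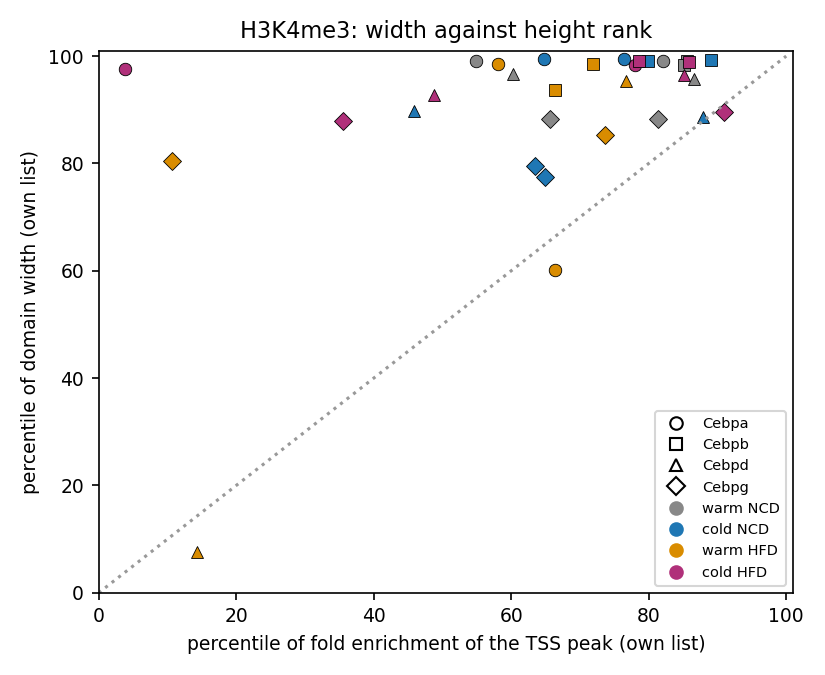
Percentile of H3K4me3 domain width (vertical) against percentile of fold enrichment of the TSS peak (horizontal), both within the own list, for Cebpa, Cebpb, Cebpd and Cebpg (symbols) in 8 mice (colours by condition). The dotted line marks equal percentiles. Most points lie above it, and the Cebpd point of mouse 7 at 14.4 and 7.58, the Cebpa point of mouse 7 at 66.4 and 60.1 and the Cebpg point of mouse 11 at 91.0 and 89.5 lie below.

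H3K27ac formed its longest domains at Cebpb and Cebpa. Its domain at Cebpb was 12.4, 12.7, 16.4, 17.5, 12.8, 2.62 and 17.6 kb wide in mice 1, 2, 4, 5, 8, 10 and 11, at percentiles of 91.2 to 99.9 with a median of 99.8. Mice 4, 5 and 11, all cold, had the widest domains, but the fourth cold mouse, mouse 10, had the narrowest. At Cebpa the domain was 5.91, 13.6, 3.10, 13.8, 13.8, 0.806 and 13.3 kb in the same mice, at percentiles of 57.5 to 99.8 with a median of 99.5. It thus fell into domains of 13.3 to 13.8 kb in mice 2, 5, 8 and 11 and broken runs of peaks in mice 1, 4 and 10. At Cebpg it was 2.09, 2.63, 3.43, 2.76, 2.62, 0.771 and 3.36 kb, with a median percentile of 88.1. At Cebpd it was 1.98, 3.51, 0.342, 1.55, 3.93 and 4.24 kb in mice 1, 2, 4, 5, 8 and 11, with a median percentile of 89.7. Mouse 7 had no H3K27ac at the TSS of any C/EBP gene, in a list of 3224 peaks. Among 3760 genes with H3K27ac at the TSS in at least 7 mice, Cebpb was number 21, Cebpa number 49 and Cebpg number 926 by median percentile.

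Both broad loci spread downstream. The median H3K27ac domain reached from 1.48 kb upstream to 11.8 kb downstream of the Cebpa TSS, and from 2.88 kb upstream to 9.89 kb downstream of the Cebpb TSS. Divided by the H3K4me3 domain of the same mouse, the H3K27ac domain was wider by a median ratio of 2.72 at Cebpb (0.528 to 3.29, n = 7), 2.31 at Cebpa (0.207 to 2.87, n = 7) and 1.12 at Cebpg (0.337 to 2.17, n = 7). At Cebpd the ratio was 0.807 (0.161 to 1.15, n = 6). The median over 3713 genes was 0.755, and 3.82% of them had a ratio above 2. In rank rather than width, H3K27ac and H3K4me3 were not shown to differ: in the 7 mice without mouse 7 the normal score of H3K27ac minus that of H3K4me3 was 0.39 ± 0.22 (SE) at Cebpb (limma adjusted p = 0.150), -0.18 ± 0.36 at Cebpa (adjusted p = 0.693) and -0.00 at Cebpg (adjusted p = 0.999). A normal score is the standard normal value that belongs to a percentile. In this comparison 51.5% of the 3686 genes passed an adjusted p of 0.05, and 0 of 3 C/EBP genes did. Pairing the marks by mouse left the adjusted p for Cebpb at 0.130.

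In 7 of 7 mice with the mark, H3K27ac peaks lay on both sides of the Cebpb TSS and the TSS base itself was not covered. The gap between the flanking peaks was 390 to 1299 bp wide, with a median of 472 bp. The same arrangement in at least 4 mice was found for 14.6% of the 5597 genes with H3K27ac in at least 6 mice. At Cebpa the start was flanked in 3 mice and covered in 3, at Cebpg it was flanked in 4 and covered in 3, and at Cebpd it was flanked in 2 and covered in 3. The strongest H3K27ac peak of the Cebpb promoter stood at a median percentile of fold of 98.3 (93.4 to 99.7), above the medians of 87.8 for Cebpa, 82.1 for Cebpg and 71.6 for Cebpd.

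**Figure D4:**
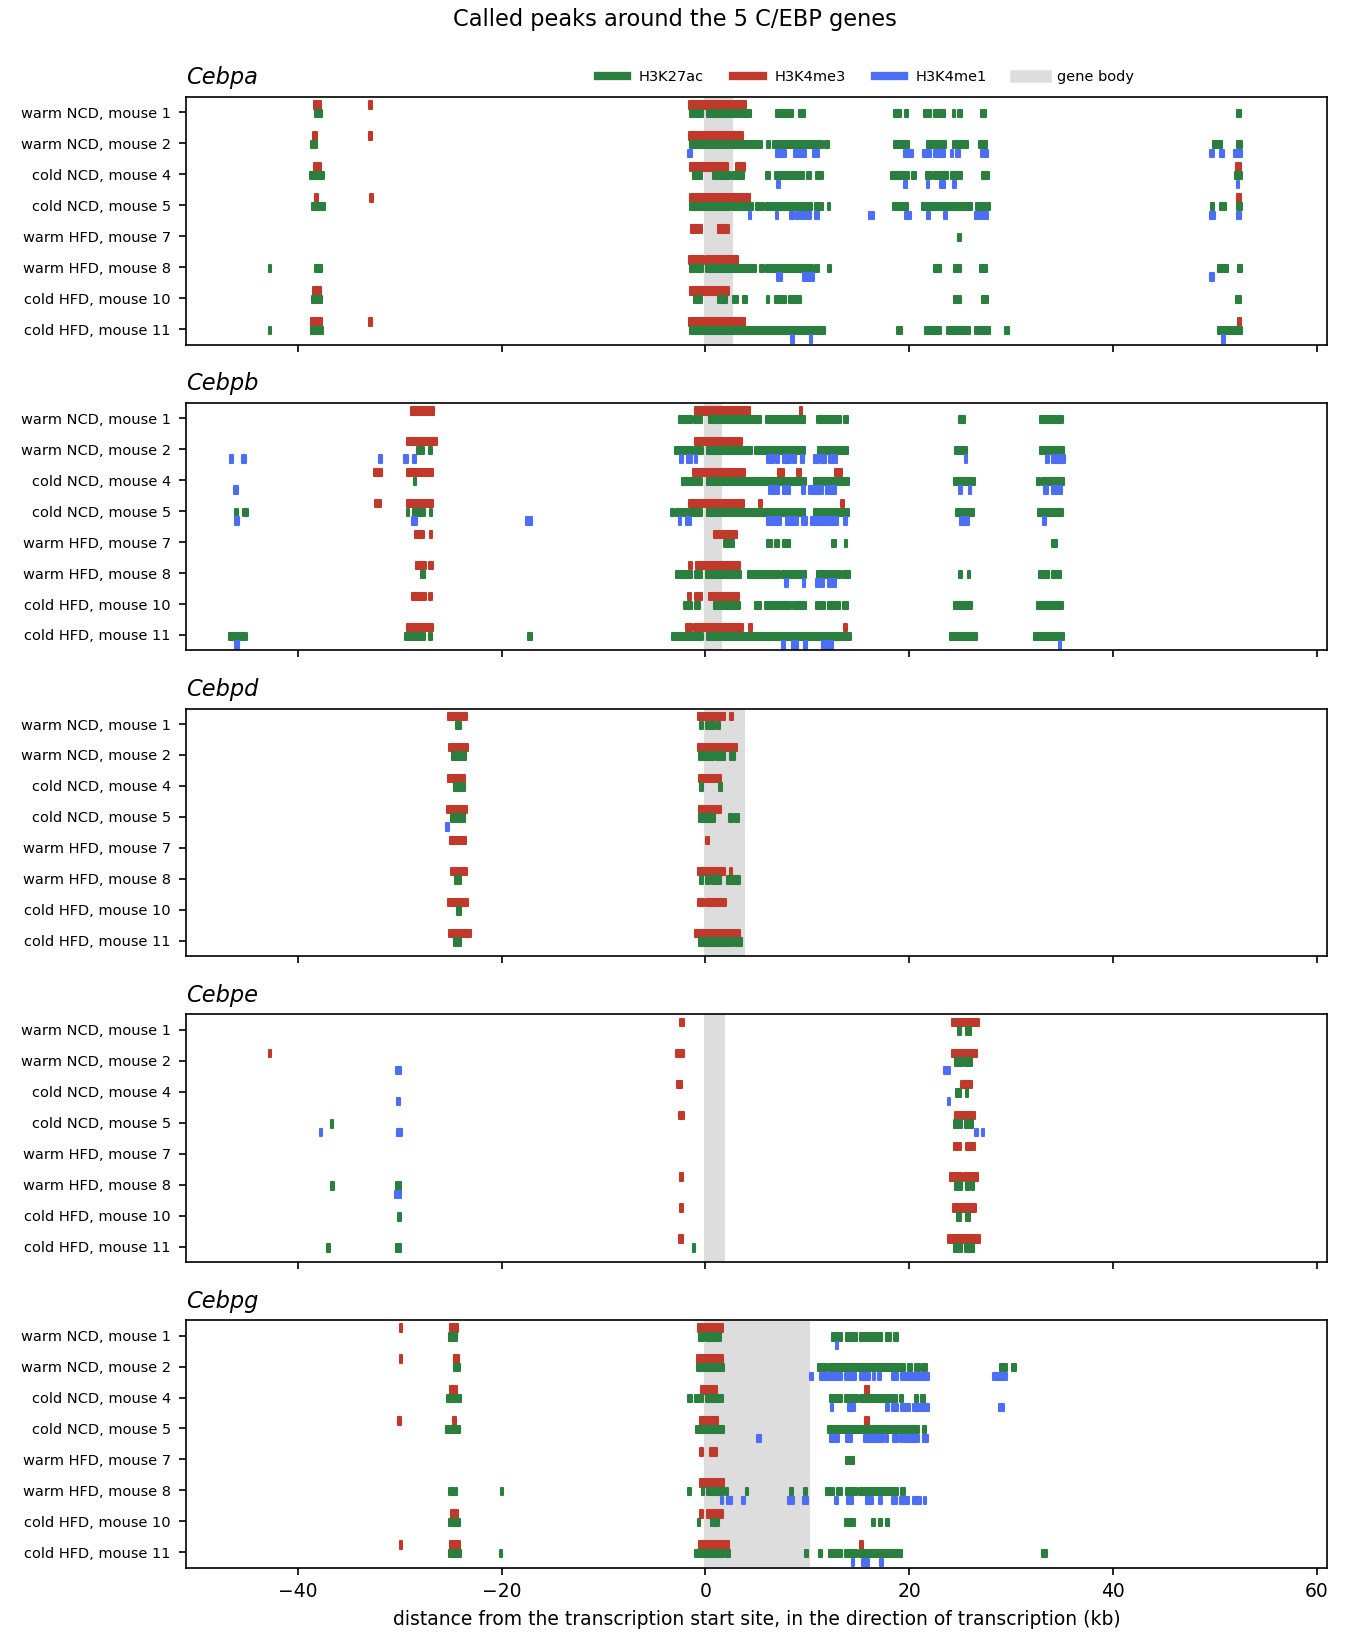
Called peaks of H3K27ac, H3K4me3 and H3K4me1 within 50 kb of each C/EBP gene body, drawn by distance in kb from the TSS in the direction of transcription, with 1 line per mouse. Grey bands are gene bodies. The downstream H3K27ac tracts of Cebpa and Cebpb and the tract 11.1 to 21.0 kb downstream of Cebpg recur across mice, and no H3K27ac peak was called from 3.59 to 53.7 kb downstream of the Cebpd TSS.

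Distal H3K27ac, which can include parts of the promoter domains, separated the family in another way. A peak was distal when its summit lay more than 1000 bp from every annotated TSS, and the bases under such peaks were summed over the gene body and 50 kb on each side. All bases of such a peak were counted, also those close to a TSS. For Cebpa the sums in mice 1, 2, 4, 5, 7, 8, 10 and 11 were 8.88, 10.6, 10.1, 12.7, 0.254, 13.3, 5.96 and 20.3 kb, at percentiles of 90.3 to 99.1 among all 21938 genes. For Cebpb they were 10.7, 11.4, 8.06, 8.33, 2.74, 12.6, 12.0 and 10.7 kb, at percentiles of 94.6 to 99.5. Mouse 7, with the shortest list, had the smallest sum at both genes, while the percentiles of both were at or above 90.3 in every mouse. In mouse 7 most genes had no distal base, and these took percentile 44.3, their middle rank. The 90.3 of Cebpa in that mouse came from a single peak of 0.254 kb, so it lies near the lowest rank of genes with any distal base. In mouse 11 the Cebpa sum includes the promoter domain of 13.3 kb, a single peak that covers the TSS. The Cebpb peak of mouse 11 that reaches the promoter is left out, since its summit was not distal. Counting only bases more than 1000 bp from a TSS, mouse 11 had 18.3 kb at Cebpa and 21.8 kb at Cebpb. For Cebpg the sums were 5.18, 10.7, 7.51, 9.24, 0.772, 7.58, 1.88 and 7.82 kb, at percentiles of 89.4 to 97.6. Cebpd had 0.255, 1.34, 0.345, 0.751, 0, 2.18, 0 and 0.675 kb, and Cebpe had 0, 0, 0, 0.207, 0, 0.74, 0.293 and 1.02 kb. Their percentiles were 33.9 to 80.0 and 25.7 to 71.7, where a gene with no distal base takes the middle rank of all such genes. By median percentile Cebpa was number 345, Cebpb 376, Cebpg 867, Cebpd 7685 and Cebpe 9445 of 21938, and the median over all genes was 34.6. The neighbours Cebpa and Cebpb overlapped in range, as did Cebpd and Cebpe.

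**Figure D5:**
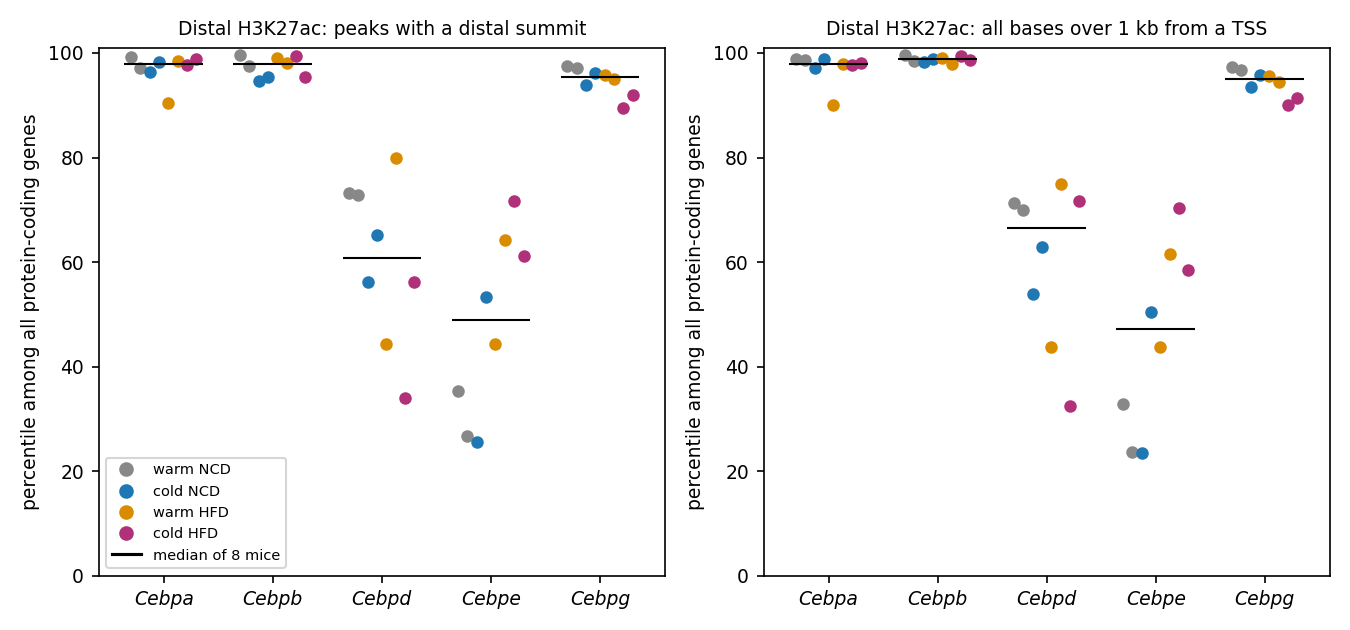
Percentile of distal H3K27ac bases around each C/EBP gene among all protein-coding genes of the same list. Points are the 8 mice coloured by condition and bars are medians, for peaks with a distal summit (left) and for all H3K27ac bases more than 1 kb from a TSS (right). Medians on the left were 97.8 for Cebpb, 95.4 for Cebpg, 60.7 for Cebpd and 48.8 for Cebpe, and Cebpa ranged from 90.3 to 99.1.

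Distal regions that recurred in at least 4 mice were found at Cebpa, Cebpb, Cebpd and Cebpg. Joining overlapping distal H3K27ac peaks of the 8 mice gave 9 regions each for Cebpa, Cebpb and Cebpg, 2 for Cebpd and 4 for Cebpe. Of these, 5 at Cebpa, 5 at Cebpb, 2 at Cebpd, 1 at Cebpg and 0 at Cebpe were found in at least 4 mice. One of those at Cebpb lay just upstream of the TSS. The central 201 bases around the strongest summit of 1 intronic or intergenic region per gene are printed on the plus strand of GRCm38.p6, for Cebpb at 33.6 kb (chr2:167722374-167722574), Cebpa in the region 23.7 to 25.9 kb (chr7:35144160-35144360) and Cebpg at 14.0 kb downstream of the TSS (chr7:35042476-35042676). They are shown because H3K27ac was called within the surrounding region in all 8 mice, and capitals mark the 11 bases centred on the summit. Each summit is that of 1 mouse, mouse 11 for Cebpb, mouse 4 for Cebpa and mouse 5 for Cebpg. Whether every mouse had a peak over the printed bases was not determined.
Cebpb: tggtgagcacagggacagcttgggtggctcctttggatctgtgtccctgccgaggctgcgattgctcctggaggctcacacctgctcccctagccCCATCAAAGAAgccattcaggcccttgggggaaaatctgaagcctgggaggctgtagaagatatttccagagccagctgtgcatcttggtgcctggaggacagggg
Cebpa: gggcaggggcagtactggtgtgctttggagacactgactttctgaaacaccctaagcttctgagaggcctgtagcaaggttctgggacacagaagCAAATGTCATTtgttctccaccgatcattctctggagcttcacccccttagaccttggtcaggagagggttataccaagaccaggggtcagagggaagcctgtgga
Cebpg: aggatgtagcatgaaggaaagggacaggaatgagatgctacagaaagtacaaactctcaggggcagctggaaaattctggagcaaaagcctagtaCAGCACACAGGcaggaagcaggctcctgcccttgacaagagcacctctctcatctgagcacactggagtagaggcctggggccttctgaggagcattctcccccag

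The letters TTGCNNAA and TGACG had no match on either strand in these 3 windows. Among 27858 such windows around distal H3K27ac summits of mouse 11, TTGCNNAA was found in 7.36% and TGACG in 6.88%. No match says only that these letters are not in these windows.

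At Cebpb the 3 leading regions lay in introns of A530013C23Rik. The region at chr2:167721151-167724102, 32.2 to 35.2 kb downstream, had H3K27ac in 8 of 8 mice at a median percentile of fold of 85.4 (21.5 to 96.6). The region at chr2:167699572-167703133, 10.7 to 14.2 kb downstream, was also covered in 8 mice. In mouse 11 the peak over it was also the strongest peak at the TSS, at percentile 99.7 of fold. Peaks with a distal summit lay there in 7 mice, mouse 11 being left out, at a median of 92.0 (56.7 to 96.1). The region at chr2:167712912-167715604, 24.0 to 26.7 kb downstream, was covered in 7 mice. There H3K27ac covered 0.607, 1.21, 2.04, 1.70, 0, 0.553, 1.79 and 2.69 kb in mice 1, 2, 4, 5, 7, 8, 10 and 11. The 4 cold mice had the larger covered lengths and the 4 warm mice the smaller, without overlap. Such a separation with longer coverage in the cold was found for 5.18% of the 11475 distal regions of the genome with H3K27ac in at least 4 mice. The fold percentiles were 83.5 to 97.8 in the cold mice and 41.9, 65.1 and 64.2 in warm mice 1, 2 and 8. This region was noticed after its values were seen and its difference was not tested.

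At Cebpa the first region, chr7:35117815-35131064, was the domain that runs from the promoter 11.8 kb downstream, with its strongest summit 1.34 kb from the TSS in the exon of Cebpa. H3K27ac covered 7.77, 12.2, 8.13, 12.1, 0, 11.6, 5.05 and 13.3 kb of it in the 8 mice in order. The intergenic region at chr7:35142961-35145212, 23.7 to 25.9 kb downstream, was covered in 8 mice by 0.254 to 2.25 kb, and it was the single H3K27ac peak of the Cebpa window in mouse 7. The region at chr7:35168886-35171964, 49.6 to 52.7 kb downstream, was covered in 7 mice at a median percentile of fold of 56.1. Between 29.8 and 49.6 kb downstream of the TSS no list held an H3K27ac peak, over 19.8 kb, nor between 37.3 and 1.54 kb upstream, over 35.7 kb.

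At Cebpg a single region recurred, at chr7:35035538-35045480 in introns of Pepd, 11.1 to 21.0 kb downstream. It was covered by H3K27ac in 8 of 8 mice, by 5.18, 9.18, 6.71, 8.94, 0.772, 6.58, 1.88 and 6.92 kb in order, at a median percentile of fold of 85.0. The start sites of Cebpa and Cebpg are 62.7 kb apart and their windows share 37.3 kb, so 1 small region upstream of each, seen in mice 8 and 11, was counted for both. At Cebpd the 2 regions lay in the gene's own exon, and from 3.59 to 53.7 kb downstream of its TSS no list held an H3K27ac peak. At Cebpe the leading region, chr14:54742004-54742563 in an intron of Slc7a8, 30.1 kb upstream, had H3K27ac in mice 8, 10 and 11, that is in 3 of 4 HFD and 0 of 4 NCD mice, with folds of 4.60 to 6.95. Of 15296 distal regions of the genome with H3K27ac in at least 3 mice, 0.445% were found in 3 or 4 HFD and 0 NCD mice, and the difference at this region was not tested. H3K4me1 was called at the same place in 4 mice, of which 3 were NCD. Counting all H3K27ac peaks, at least 1 list covered 27.4 kb of the window at Cebpa, 27.4 kb at Cebpb, 18.2 kb at Cebpg, 5.68 kb at Cebpd and 3.16 kb at Cebpe.

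H3K4me1 was called at distal regions of Cebpa, Cebpb, Cebpg and Cebpe, and rarely at the starts. It was called within 1 kb of the TSS only in mouse 2 for Cebpb and in mouse 8 for Cebpg. Of the distal H3K27ac regions, 9 of 9 at Cebpb, 6 of 9 at Cebpa, 5 of 9 at Cebpg, 1 of 4 at Cebpe and 0 of 2 at Cebpd overlapped an H3K4me1 peak of at least 1 mouse. The marks need not share a mouse: a Cebpa region had H3K27ac in mouse 4 alone and H3K4me1 in mouse 2 alone. The share of all distal H3K27ac regions of the genome with such an overlap was not determined, so these counts have no background. Distal H3K4me1 bases at Cebpb were 7.97, 6.49, 9.57, 1.96 and 2.97 kb in mice 2, 4, 5, 8 and 11, at percentiles of 92.3 to 99.0. In mice 1, 7 and 10 it was 0 kb, and the H3K4me1 lists of these mice held 592, 12 and 18 peaks. In mice 2, 4, 5, 8 and 11 the percentiles were 87.9 to 97.9 at Cebpa and 94.9 to 98.9 at Cebpg. H3K27me3 was called in none of the windows except that of Cebpa in mouse 5, 40.8 kb downstream of the TSS, with a fold of 5.92 at percentile 72.9 of its list.

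Cebpe, the granulocyte gene, was bare over its gene body. A small H3K4me3 peak, 272 to 747 bp wide, lay 2.09 to 2.29 kb upstream of its TSS in 7 of 8 mice, mouse 7 excepted. Its fold was 3.40 to 8.79, at percentiles of 6.56 to 41.9. A narrow H3K27ac peak of 0.267 kb reached within 1 kb of the TSS in mouse 11 alone. The H3K4me3 found 25.2 kb downstream of Cebpe in 8 mice belongs to the start of Acin1 and 1700123O20Rik.

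Cold exposure and diet were then compared over 4 against 4 mice, in a fit to all genes with a domain. For H3K4me3 width the normal score of cold minus warm was 0.51 ± 0.38 (SE) for Cebpa (limma adjusted p = 0.671), 0.31 ± 0.17 for Cebpb (adjusted p = 0.581), 0.48 ± 0.70 for Cebpd (adjusted p = 0.799) and -0.07 ± 0.15 for Cebpg (adjusted p = 0.869). The fit called 0.0105% of 9499 genes, and 0 of 4 C/EBP genes were called. Without mouse 7, Cebpd turned to -0.34 ± 0.15 (adjusted p = 0.404) and Cebpa was 0.068 ± 0.10 (adjusted p = 0.814). Cebpb was then 0.15 ± 0.095 (adjusted p = 0.544) and Cebpg -0.17 ± 0.14 (adjusted p = 0.615), so the size of each of the 4 values rests on that mouse. The H3K4me3 list of mouse 7 was the shortest, and the part of list length in these values was not tested.

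By diet, Cebpa alone among the C/EBP genes had H3K4me3 percentiles that did not overlap between groups. HFD minus NCD was -0.83 ± 0.38 for Cebpa (limma adjusted p = 0.347), -0.24 ± 0.17 for Cebpb (adjusted p = 0.465), -0.64 ± 0.70 for Cebpd (adjusted p = 0.634) and 0.10 ± 0.15 for Cebpg (adjusted p = 0.740). The Cebpa domain ranked at percentiles of 99.0 to 99.5 in the 4 NCD mice and of 60.1, 98.5, 97.7 and 98.3 in the 4 HFD mice, lower in 4 of 4. The exact two-sided permutation test of this single gene gave p = 0.0286, the smallest that 4 against 4 mice can give. Such a complete separation towards lower ranks in HFD was found for 7.52% of the 9499 genes, and for 1 of 4 C/EBP genes. limma called 0.0% of genes by diet, with 1447 at an unadjusted p under 0.05. Without mouse 7 the Cebpa difference was -0.38 ± 0.10 (adjusted p = 0.167), with the groups still apart, as were 10.5% of 11767 genes. Without that mouse Cebpb was at -0.073 ± 0.095 (adjusted p = 0.670), Cebpd turned to 0.19 ± 0.15 (adjusted p = 0.469) and Cebpg was at 0.20 ± 0.14 (adjusted p = 0.411). Adjusted p-values for Cebpa over its alternatives lay between 0.167 and 0.604, and the groups overlapped when peaks were joined over 3000 bp. In kb the HFD mice had 1.09 to 5.55 and the NCD mice 5.38 to 5.95, which overlap.

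Cebpd and Cebpg are set side by side over the 4 conditions. In NCD mice both H3K4me3 domains were narrower in the cold: 2.13 and 2.22 kb against 3.41 and 3.84 kb at Cebpd, and 1.58 and 1.77 kb against 2.48 and 2.51 kb at Cebpg. In HFD mice the cold values were 2.70 and 4.36 kb against 0.27 and 3.42 kb at Cebpd, and 2.29 and 2.95 kb against 1.60 and 2.34 kb at Cebpg. The cold effect on HFD minus that on NCD was 0.65 ± 0.19 in normal score for Cebpg (limma adjusted p = 0.795) and 2.05 ± 1.27 for Cebpd (adjusted p = 0.795). It was called for 0.0% of 9499 genes, with 496 at an unadjusted p under 0.05. It was 0.29 ± 0.33 for Cebpb (adjusted p = 0.811) and 0.65 ± 0.78 for Cebpa (adjusted p = 0.820).

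For H3K27ac at the TSS no C/EBP gene had a domain in all 8 mice, and the 7 mice without mouse 7 were compared instead. Cold minus warm was -0.86 ± 0.69 for Cebpa (limma adjusted p = 0.908), -0.16 ± 0.40 for Cebpb (adjusted p = 0.951) and -0.08 ± 0.30 for Cebpg (adjusted p = 0.975). HFD minus NCD was -0.30 ± 0.69, -0.65 ± 0.40 and -0.37 ± 0.30 for the same genes, with an adjusted p of 0.997 for each. In this fit limma called 0.0% of 3735 genes by either factor. Without mice 7 and 10, cold minus warm was -0.40 ± 0.46 for Cebpa (adjusted p = 0.873), 0.14 ± 0.15 for Cebpb (adjusted p = 0.872) and 0.14 ± 0.14 for Cebpg (adjusted p = 0.860). Cebpg then ranked higher in each of the 3 cold mice, as did 5.2% of 5773 genes. HFD minus NCD was 0.39 ± 0.49 for Cebpa (adjusted p = 0.874), -0.20 ± 0.16 for Cebpb (adjusted p = 0.871) and -0.041 ± 0.14 for Cebpg (adjusted p = 0.944). Cebpd, which lacked H3K27ac in mice 7 and 10, had percentiles of 86.6, 92.8 and 93.5 in the warm mice 1, 2 and 8, and of 19.3, 71.3 and 93.3 in the cold mice 4, 5 and 11. The exact permutation test of that difference gave p = 0.300. By diet, HFD mice 8 and 11 ranked above the 4 NCD mice, with exact p = 0.133, the smallest that 2 against 4 mice can give. The fit without mice 7 and 10 gave 0.94 ± 0.53 for Cebpd by diet (limma adjusted p = 0.871), and 13.9% of 5773 genes were likewise higher in HFD without overlap.

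Distal H3K27ac gave no call by temperature or diet either. Cold minus warm was 0.11 ± 0.27 for Cebpa (limma adjusted p = 0.891), -0.36 ± 0.28 for Cebpb (adjusted p = 0.696), -0.41 ± 0.27 for Cebpd (adjusted p = 0.639), 0.27 ± 0.25 for Cebpe (adjusted p = 0.764) and -0.32 ± 0.22 for Cebpg (adjusted p = 0.668). limma called 0.0% of 9887 genes by either factor, with 1082 at an unadjusted p under 0.05 by temperature and 684 by diet. The largest diet difference of the family was that of Cebpe, at 0.66 ± 0.25 (adjusted p = 0.644). Cebpe entered this fit with distal bases in mice 5, 8, 10 and 11 alone, the fewest allowed. Of these, mice 8, 10 and 11 were on HFD, so the gene entered mainly through the group where it was higher. It did not enter when any of these mice was left out, with a window of 25 kb, or at a −log10 q of at least 5. Its percentiles were 44.3, 64.3, 71.7 and 61.2 in HFD mice and 35.2, 26.7, 25.7 and 53.3 in NCD mice, which overlap, and the exact permutation test gave p = 0.0571. HFD mouse 7 and NCD mice 1, 2 and 4 had no distal base at Cebpe, so their percentiles are the middle rank of all such genes in each list. Without mouse 7 the difference was 0.78 ± 0.22 (limma adjusted p = 0.529) and the groups did not overlap, as for 4.49% of 9881 genes. With a window of 100 kb it was 0.62 ± 0.22 (limma adjusted p = 0.504), again without overlap in rank, as for 1.77% of 12878 genes. That window held the same 4 distal regions of Cebpe as the window of 50 kb. In bases the groups overlapped, with 0 kb in HFD mouse 7 and 0.207 kb in NCD mouse 5. The separation at 100 kb thus rests on the middle rank given to mouse 7. The other 4 genes differed by diet with adjusted p-values of 0.767 to 0.921. Without mice 7 and 10, Cebpb ranked lower in each of the 3 cold mice than in the 3 warm ones (-0.55 ± 0.21, adjusted p = 0.439), as did 7.71% of 9715 genes. Cebpd did so too (-0.45 ± 0.17, limma adjusted p = 0.435), so that 2 of the 4 C/EBP genes in that fit were separated. Without mouse 7 alone, Cebpd was at -0.59 ± 0.22 (limma adjusted p = 0.453) with the 4 cold mice below the 3 warm ones, as for 4.7% of 9881 genes. Counting all bases more than 1000 bp from a TSS in all 8 mice, wherever the summit lay, the Cebpb difference was -0.02.

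Presence at the TSS was compared by Fisher's exact test over 4 and 4 mice. H3K4me3 was found at Cebpa, Cebpb, Cebpd and Cebpg in 4 of 4 mice of every group, against 43.3% of all genes marked in all 8 mice. H3K27ac was found at Cebpa, Cebpb and Cebpg in 7 mice, against 17.1% of genes with at least 7. At Cebpd it was found in 4 of 4 NCD and 2 of 4 HFD mice (exact p = 0.429). A complete split of 4 against 0 mice, for which the exact p would be 0.0286, occurred for 0 of 5 C/EBP genes in any mark by either factor. Among all genes with H3K4me3 in any mouse it occurred for 0.0422% by temperature and 0.183% by diet, and for H3K27ac for 0.119% and 0.101%. The H3K4me1 shares were 0.0% by temperature and 0.061% by diet, and the H3K27me3 share was 0.0% by each.

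Genes linked to C/EBP function were listed by role and given the same treatment. Of 8 upstream regulators, 6 had H3K4me3 at the TSS in all 8 mice, and the widest were Nr3c1, the glucocorticoid receptor, at a median percentile of 99.2, and Klf4 at 98.7. Egr2, at 93.9 in 7 mice, and Creb1, at 90.2, followed. Of 6 dimer partners and regulators all 6 were marked in 8 mice: Ddit3, which encodes the C/EBP-related protein CHOP, at 99.6, Trib1 at 99.3, Trib2 at 97.9 and Id2 at 94.3. Trib1 and Trib2 encode pseudokinases known to direct C/EBPα to degradation. Of 11 fat cell targets and partners 9 were marked in all mice, with a list median of 97.9 and Pparg at 99.8, Prdm16 at 99.6 in 7 mice, Plin1 at 99.1 and Slc2a4 at 98.2. Of 7 granulocyte targets, known partly as targets of Cebpe, 6 had no H3K4me3 at the TSS in any mouse and Csf3r had it in 1. Of 3 liver targets Pck1 was marked in 8 mice at 98.9, and Alb and G6pc in none. Of the 35 genes of these lists 29 entered at least 1 fit, and 0 of them passed an adjusted p of 0.05 by temperature or diet.

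The genes whose H3K4me3 widths most resembled those of each C/EBP gene were found over the 8 lists by the root mean square difference of percentile. For Cebpa they were Myadm (0.616 percentile points), Per1 (0.906) and Nr3c2 (0.919). For Cebpb they were S1pr1 (0.458), Ppp1r9b (0.467) and Dhrs3 (0.649). For Cebpd they were Map3k5 (2.17) and, at 3.17 each, Gm45234 and Atn1, which share a domain. For Cebpg they were Laptm4a (2.47), March7 (2.87) and Manf (2.88).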

How the data were processed

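Chromatin immunoprecipitation with sequencing was done on brown adipose tissue of 8 mice for 4 marks, with an input per mouse that is not analysed here except through the peak lists. Per the study's methods, the authors filtered reads with cutadapt, aligned them to GRCm38 with bowtie2 and called peaks with macs2 against the corresponding input, and the submitters' processing notes also name deepTools. Software versions and the caller's cutoff were not given in the methods or labels used here. Each deposited list gives a fold enrichment per peak, a ratio of ChIP signal to local background made by the authors' peak caller. The deposited lists also give −log10 p and −log10 q values from the same caller, of which the smallest q value was 1.30 on the −log10 scale. Read depth is unknown, so no counting interval is given. One list per library was used. Labels number separate mice, while the study's methods state that each sequencing experiment used brown fat from 2 mice. Whether 1 library pools 2 mice is not stated there, and p-values measure only the spread between these samples.

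Genes came from the GENCODE M21 basic annotation. No peak passed the end of any of 21 reference chromosomes. Peaks were joined over 1000 bp into domains and ranked by width within each list. The percentile was turned into a normal score and tested with limma 3.58.1 in R 4.3.3 (temperature plus diet, no interaction) over all genes with a domain in all 8 mice, with Benjamini-Hochberg adjustment over all genes and a threshold of 0.05. Distal H3K27ac was tested over genes with distal bases in at least 4 mice. Single genes were also tested by exact permutation over mice and presence by Fisher's exact test, all two-sided. The fit was tested on simulated data for the cold effect on H3K4me3 width over 9499 genes, and recovered 58% of genes shifted by 1 normal-score unit and 86% of those shifted by 2. The simulated noise was normal and independent between genes and mice. Outlying mice such as mouse 7 were not simulated, so recovery in these data can differ. H3K27ac and H3K4me3 of a mouse come from the same animal per the labels. Their deviations correlated at 0.132 to 0.370 within mice over 798 genes, each of the 8 mice best with itself.

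The members, gene lists and tests were chosen with earlier results of these data known. The 5 members were named whatever their values. Up to 4 genes of a list were named by median H3K4me3 percentile, up to 3 distal regions per gene by the number of mice and then by percentile of fold, and the 3 most similar genes. Similarity was to use both marks in all 8 mice, but 0 members qualified, and H3K4me3 alone was used. Alternatives were other joining gaps, windows and distances, a −log10 q of at least 5, each mouse left out, and, added after the data were seen, mice 7 and 10 left out together, all distal bases and an interaction. Sequences are from RefSeq and the GRCm38.p6 genome, read with samtools 1.23.1. Python 3.11.15, numpy 2.4.6, pandas 2.3.3 and scipy 1.17.1 were used.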

Additional observations from a re-analysis of the deposited data

Results flagged for a closer look

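In groups of 4 mice, the highest or lowest value stood apart by Dixon's criterion (a gap over 0.829 of the group's range) in 11 of 43 groups of C/EBP values. The criterion's rate of about 1 in 20 holds for independent normal values. These groups share mice and hold percentiles, many of them close to 100, so the count cannot be set against that rate. Mouse 7 was the mouse set apart in 7 of the 11 groups. Its H3K4me3 width percentile at Cebpa was 60.1, with a ratio of gap to range of 0.982 among warm mice and 0.979 among HFD mice. At Cebpb it was 93.7, with ratios of 0.863 and 0.922, and at Cebpd 7.58, with ratios of 0.984 and 0.959. Its distal H3K27ac percentile at Cebpa was 90.3, with a ratio of 0.877 among HFD mice. Mouse 10 was lowest among cold mice for H3K27ac width at Cebpb (91.2, ratio 0.987) and Cebpg (56.1, ratio 0.901), and highest for distal H3K27ac at Cebpb (99.5, ratio 0.831). Mouse 4 was lowest among NCD mice for H3K27ac width at Cebpa (90.1, ratio 0.889). Mice 7 and 10 had the 2 shortest H3K27ac lists, of 3224 and 14511 peaks, and the part of list length in these values was not tested. No difference of a cold effect between diets passed an adjusted p of 0.05 in 9 tests (limma).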

How the results depend on the processing

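Over 27 differences of C/EBP genes by temperature, diet or mark and 249 alternatives, 227 kept their direction and their side of the threshold and 21 changed sign. The remaining 1 was the exact permutation test of Cebpa H3K4me3 width by diet, whose p of 0.0286 is unadjusted and for this gene alone. No adjusted p fell below 0.130, so no sign change concerned a called difference, and the cause of these changes was not tested. Genes called for H3K4me3 width by temperature numbered 1, 0 with peaks as called, joined over 3000 bp or at a −log10 q of at least 5, 0 to 4 with single mice left out, and 100 without mice 7 and 10. By diet they numbered 0, 1 with peaks as called, 2 over 3000 bp, 0 to 11 with single mice left out (11 without mouse 11), and 1 without mice 7 and 10. Calls for H3K27ac width by temperature ranged from 0 to 1 with single mice left out, and for distal H3K27ac by temperature from 0 to 84, the highest without mouse 8. Genes called between marks numbered 281, 96 with peaks as called, 118 at a −log10 q of at least 5, and 212 to 1898 with single mice left out. Pairing the marks by mouse as a block gave 291 calls in 8 mice and 2053 without mouse 7, and changed no call of a C/EBP gene.

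Values that changed sign are given in normal scores. Without mice 7 and 10, H3K27ac width by diet was 0.39 at Cebpa, and by temperature 0.14 at Cebpb and 0.14 at Cebpg. H3K4me3 width at Cebpd was 0.23 by diet and -0.32 by temperature, distal H3K27ac by diet was 0.16 at Cebpa, -0.078 at Cebpb and 0.056 at Cebpd, and by temperature -0.086 at Cebpa. Without mouse 7, H3K4me3 width at Cebpd was 0.19 by diet and -0.34 by temperature. With single mice left out, distal H3K27ac at Cebpa ranged from -0.23 to 0.12 by diet and from -0.12 to 0.27 by temperature, that at Cebpb by diet from -0.019 to 0.40, H3K4me3 width at Cebpd from -1.05 to 0.19 by diet and from -0.34 to 0.90 by temperature, and at Cebpg by temperature from -0.17 to 0.0091. Peaks as called gave -0.19 by diet and 0.030 by temperature for H3K4me3 width at Cebpg, and joining over 3000 bp gave -0.053 by temperature at Cebpa. A window of 100 kb gave -0.065 for distal H3K27ac by temperature at Cebpa, and all distal bases gave -0.036 by diet at Cebpb. The H3K4me1 and H3K27me3 lists were too short in several mice for a comparison of width.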
